A study of Homo sapiens with 2 samples.

Results

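Neurotrophins are secreted growth factors that keep neurons alive and shape their connections, and several tumour types use them as well. The genes described here are the neurotrophins BDNF and NTF3, the Trk receptors NTRK2 and NTRK3, the p75 receptor NGFR and the sorting receptor SORT1. They were chosen by gene name, and the array carried 11 probes for these 6 genes among 41000 probes for 30484 gene names. HEK-293, a line of human embryonic kidney origin, had been transfected with 75 nM of a miR-204 mimic or of scramble oligos as the control, and RNA was taken after 48 h. Both RNAs were hybridised together on 2 arrays with the dyes exchanged, the control in Cy3 on 1 (the forward array) and in Cy5 on the other (the swapped array). The arrays were taken as a technical swap of 1 pair of RNAs and counted as 1 replicate, which the labels neither state nor deny. No test between the conditions is therefore relied on, and the methods' t-test appears only among the processing alternatives. Every difference below describes these samples, with the spread between the arrays as its error. In bulk RNA, fewer cells with a transcript and less of it per cell cannot be told apart. The labels call miR-204 by name without an arm, and do not say whether the cells of both arrays came from 1 culture, a pool or separate cultures.

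A neurotrophin is made as a precursor, is cut to its mature form and binds a Trk receptor, a tyrosine kinase that signals through RAS and MAP kinases, phosphoinositide 3-kinase and phospholipase C. Mature BDNF binds TrkB, the product of NTRK2, and NT-3, the product of NTF3, binds TrkC, the product of NTRK3. The p75 receptor binds all neurotrophins with lower affinity, and with sortilin, the product of SORT1, it binds their uncut precursors. A microRNA pairs through its seed, the stretch near its 5′ end, with sites in target messenger RNAs and lowers their translation or level. BDNF was of interest in this study as a predicted target of miR-204 that the paper also chose for its change on the microarray. The paper further reports reporter assays, less BDNF messenger RNA and protein after miR-204, and rescue by BDNF, none of them examined here. The comparison asks whether the messenger RNAs of the ligands and of the receptors differed after the mimic.

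The mature sequences of miR-204 are shown because the mimic carries one of them, and miR-211-5p because it has the same seed. The seed, bases 2 to 8, is in capitals, and all sequences are from RefSeq.
hsa-miR-204-5p: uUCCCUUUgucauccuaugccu
hsa-miR-211-5p: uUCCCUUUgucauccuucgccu
hsa-miR-204-3p: gCUGGGAAggcaaagggacgu
The first of these lies at chr9:70810031-70810052 and the last at chr9:70809993-70810013, both on the minus strand of GRCh38.p14, and miR-211-5p lies at chr15:31065095-31065116 on the minus strand. The seed UCCCUUU was held by 2 of 2370 mature human names in the RefSeq table, miR-204-5p and miR-211-5p, which differ from each other at 2 positions outside the seed. A messenger RNA that pairs with this seed holds AAAGGGA. The seed of the other arm was held by 1 name alone and pairs with UUCCCAG. Both arms come from 1 hairpin of 110 bases at chr9:70809975-70810084, printed with the arms in capitals.
MIR204: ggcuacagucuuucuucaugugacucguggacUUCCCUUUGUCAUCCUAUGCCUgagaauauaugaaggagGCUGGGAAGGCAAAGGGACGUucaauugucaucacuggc
The untranslated regions of the 6 messenger RNAs were not analysed here, so no site was looked for in them.

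Of the 6 genes, NTF3, NGFR and SORT1 gave probes that the scanner software flagged as well above background, here called detected, in both RNAs on both arrays. NTRK2 gave 1 such probe in 3 of 4 channels, BDNF 1 probe in 1 channel, and NTRK3 none. In all, 4 of 11 probes passed in all 4 channels and 5 passed in none, and no probe was saturated or flagged as an outlier. Of the 44 probe and channel values, 20 were detected, 11 in control RNA and 9 in miR-204 RNA, and 12 were surrogates, stand-in values that the software writes where a signal is not distinguishable from background. Over all spots other than controls, 58.3% to 66.9% were detected, depending on the channel. A probe was counted when it was detected on both arrays in at least one RNA, and 5 member probes of 4 genes were counted. Levels of different probes cannot be set against each other, so no order of the genes by level is given.

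**Figure D1:**
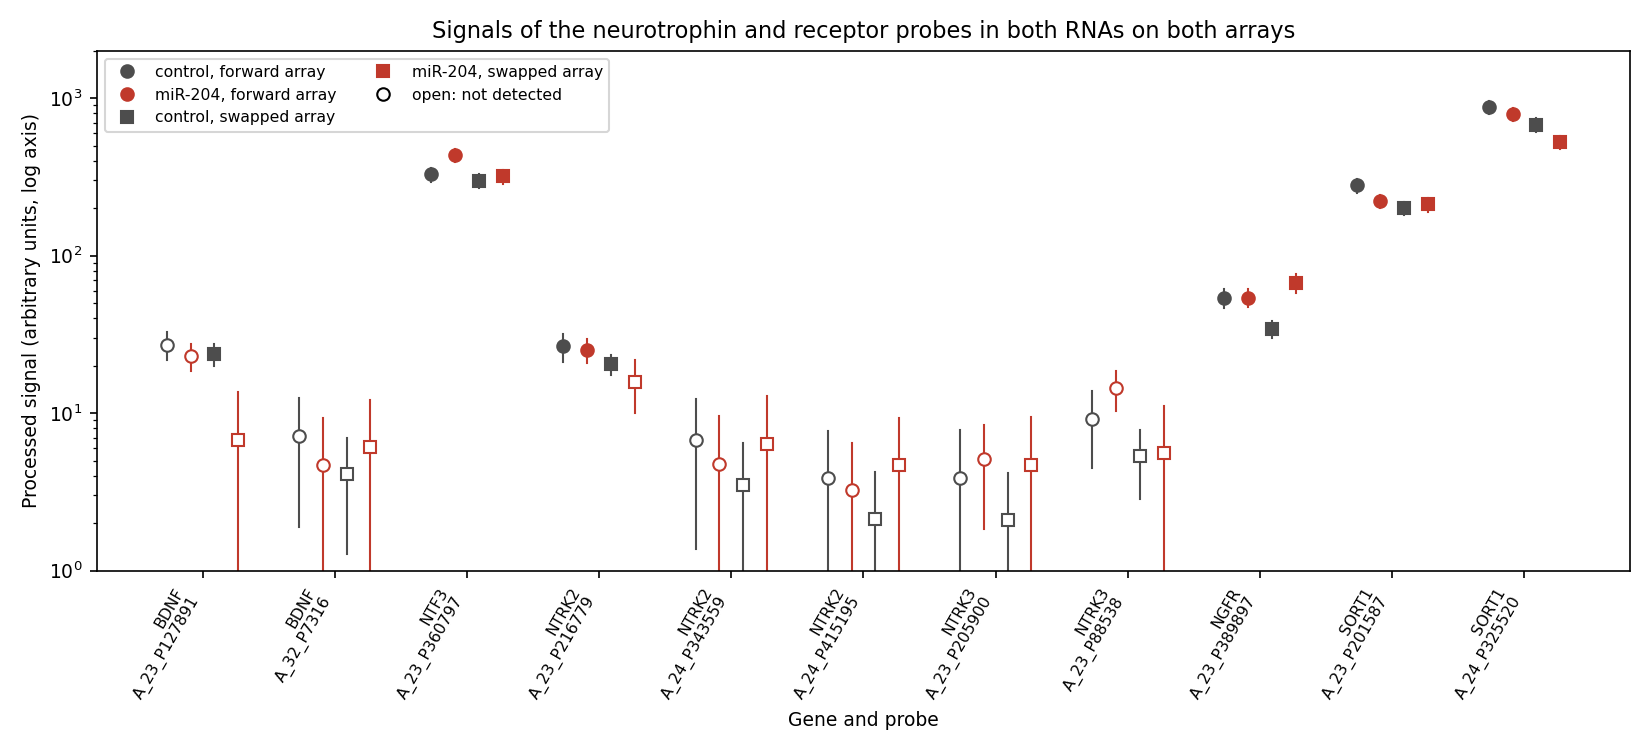
Processed signal (arbitrary units, log axis) of the 11 probes in control RNA (grey) and miR-204 RNA (red) on the forward array (circles) and the swapped array (squares), with the error of the scanner software as bars. Filled points are detected: all points of the NTF3, NGFR and SORT1 probes are filled, and all points of both NTRK3 probes are open, with error bars that reach the lower edge of the plot for the dimmest.

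The labelled cell line was checked against marker genes. Of 6 genes listed for HEK-293, 5 had a probe detected in all 4 channels, among them the keratins KRT8 and KRT18 and the neurofilaments NEFL and NEFM, which this line is known to express, and PAX2 had none. The endothelial genes PECAM1, CDH5 and KDR and the hepatocyte genes ALB and APOA1 were not detected in any channel. The leukocyte genes PTPRC and CD3E were detected in no channel. Of the fibroblast genes DCN was detected in all 4 channels, LUM in 3 and COL1A2 in 1. Of neuronal and glial genes, SYN1, GFAP and MBP each had 1 such probe.

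BDNF is the ligand of TrkB. Its probe A_23_P127891, at chr11:27636476-27636535 on hg18, read 27.2 ± 5.41 in control RNA and 22.9 ± 4.44 in miR-204 RNA on the forward array (processed signal with the software's error). On the swapped array it read 23.6 ± 3.81 in control RNA and 6.77 ± 6.77 in miR-204 RNA. The last value was the low one, and it was a surrogate with an error as large as itself. The other 3 values lay close together, and only the control value on the swapped array was detected.

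For this BDNF probe miR-204 over control was accordingly, in log2, -0.29 on the forward array and -2.07 on the swapped array, 1.78 apart. Before background subtraction the spot on the swapped array read 64.0 in the miR-204 channel, where 5 of 153 negative control spots were as bright or brighter. In the control channel of that array it read 95.6, and 2 of the 153 were as bright or brighter. On the forward array 1 of 153 reached it in each channel. Normexp, a background correction that models the signal left after subtraction, was run with an added offset of 50, which pulls weak signals toward each other. With loess it gave 0.09 and -0.13. The offset is larger than any processed signal of this probe, so ratios near 0 from this setting say little about BDNF. As miR-204 RNA was not detected on either array, no fold was read from this probe. In 1 setting, after loess and scaling between channels, miR-204 RNA was set at the higher of its own signal and its channel's lowest detected signal. Control RNA was then 1.08-fold higher, or 0.11 in log2. This is not a lower bound on the difference. On the forward array it rests on the miR-204 signal of 22.9, which was not detected. On the swapped array, the only one where control RNA was detected, the control value of 23.6 was below the lowest detected miR-204 signal, 24.4 before scaling. For scale, the 6 probes printed 10 times at a like signal had a median SD of the log2 ratio between spots. It was 0.47 on the forward array and 0.50 on the swapped array, both above 0.11. The probe was not counted.

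The second BDNF probe, A_32_P7316 at chr11:27633589-27633648, lies 2827 bases from the first. It read 7.19 and 4.69 in control and miR-204 RNA on the forward array and 4.13 and 6.10 on the swapped array, none of them detected. Between 5 and 22 of the 153 negative control spots were as bright or brighter, depending on the channel. The 6.10 was a surrogate. The normalized log2 ratio was -0.55 and -0.21, and no fold was read from it. The array annotation gives both BDNF probes to the same transcript.

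**Figure D2:**
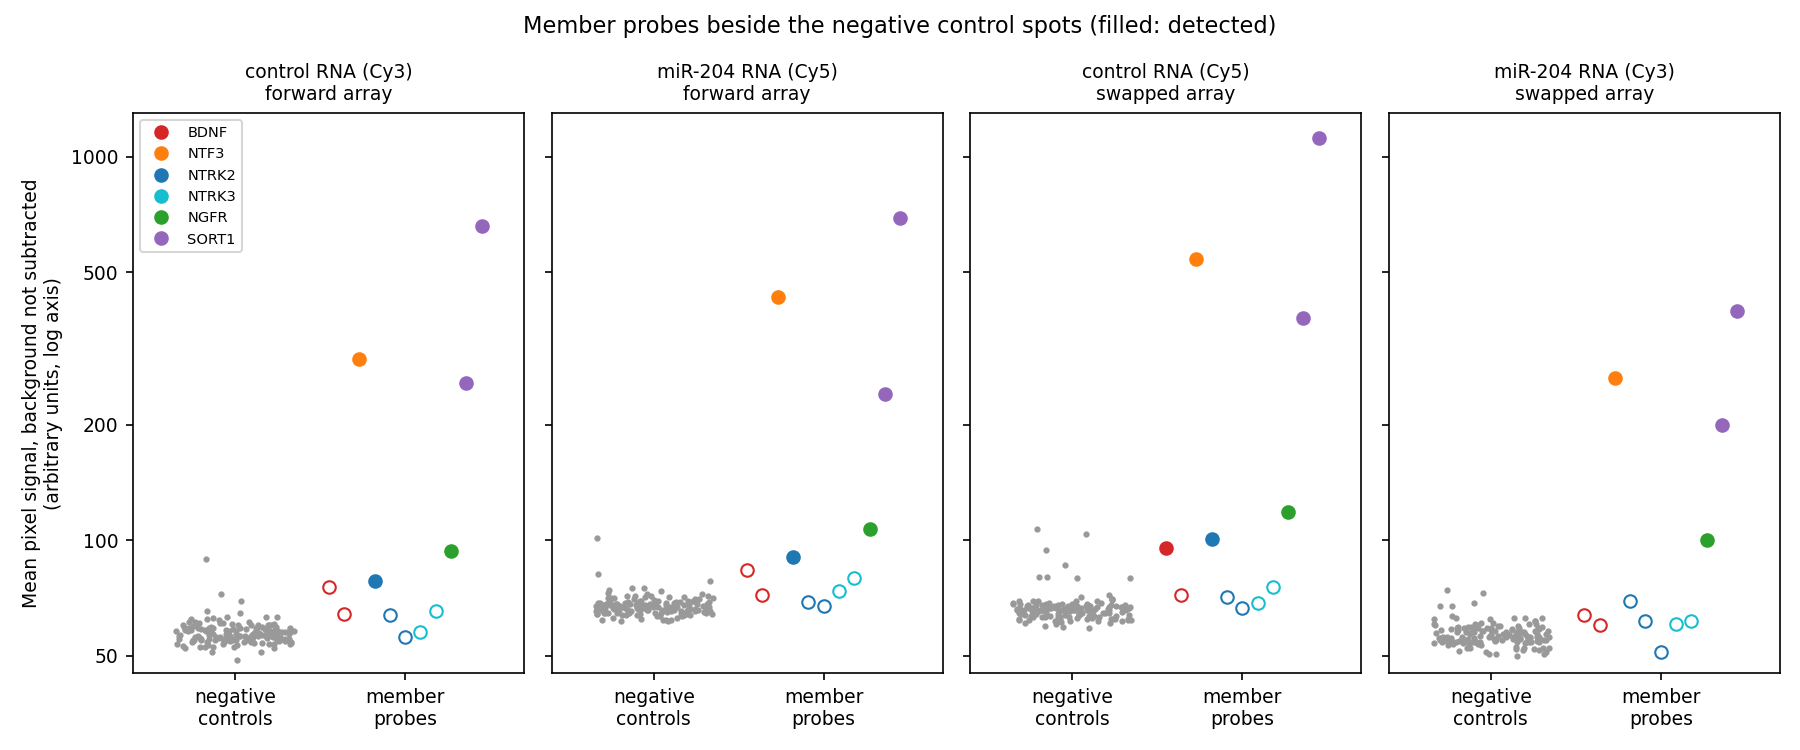
Mean pixel signal before background subtraction (arbitrary units, log axis) in each channel, for the 153 negative control spots (grey) and the 11 member probes (coloured by gene, filled where detected). In every channel NTF3, NGFR and SORT1 lie above all negative controls, and the BDNF, NTRK2 and NTRK3 probes lie within their range.

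NTF3 encodes the ligand of TrkC, and its only probe, A_23_P360797 at chr12:5474300-5474359, was detected throughout. It read 328 ± 33.2 in control RNA and 435 ± 43.6 in miR-204 RNA on the forward array, and 299 ± 30.0 and 318 ± 32.3 on the swapped array. Signal was higher in miR-204 RNA on both arrays, and the values of the RNAs overlap across the arrays. The log2 ratio was 0.42 on the forward array and 0.09 on the swapped array, a mean of 0.25 ± 0.24 (SD over the arrays). The software's own ratio was 0.40 ± 0.21 and 0.09 ± 0.21. Probes printed 10 times at a like signal had a median spot SD of 0.07 on each array, smaller than the 0.33 between the arrays. Of the 23159 probes detected in all 4 channels, 12.9% had as high a mean or higher.

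NTRK2 encodes TrkB, which is made as a full-length kinase and as truncated forms that lack the kinase. The probe A_23_P216779, at chr9:86615799-86615858, belongs by the array annotation to transcript variant b, the truncated form. It read 26.5 ± 5.31 in control RNA and 25.3 ± 4.43 in miR-204 RNA on the forward array, and 20.5 ± 3.05 and 15.8 ± 5.81 on the swapped array, where the miR-204 value was not detected. The differences between the RNAs were within those errors on both arrays. The log2 ratio was -0.10 and -0.25, a mean of -0.17 ± 0.11, beside a median spot SD of 0.45 and 0.46 among 7 probes printed 10 times at a like signal. The probe was counted through control RNA alone, so the sign of its ratio is not read further.

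The probe for transcript variant a, the full-length kinase, was A_24_P343559 at chr9:86826261-86826320. It passed in no channel, with 6.80 and 4.78 in control and miR-204 RNA on the forward array and 3.51 and 6.39 on the swapped array, both miR-204 values being surrogates. The third NTRK2 probe, A_24_P415195 at chr9:86830219-86830278, was a surrogate in all 4 channels, and 52 to 147 of the 153 negative control spots were as bright or brighter. The probe for the full-length form was thus not detected in either RNA, and the receptor protein was not measured. The probe of the truncated form lies 210402 bases from that of the full-length form.

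NTRK3 encodes TrkC. Its probe A_23_P205900, at chr15:86221189-86221248, read 3.89 and 5.13 in control and miR-204 RNA on the forward array and 2.10 and 4.71 on the swapped array, with surrogates in 3 of 4 channels. The probe A_23_P88538 has its ends at 86377246 and 86470530 on chromosome 15, so it bridges a splice junction. It read 9.18 and 14.4 on the forward array and 5.34 and 5.58 on the swapped array. Neither was detected anywhere, and no fold was read from them.

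NGFR, the p75 receptor, had 1 probe, A_23_P389897 at chr17:44946977-44947036, detected in all 4 channels. It read 54.1 ± 7.36 in control RNA and 54.2 ± 6.92 in miR-204 RNA on the forward array, and 34.4 ± 4.26 and 67.3 ± 9.05 on the swapped array. The RNAs were level on the forward array, and miR-204 RNA was the brighter on the swapped array by more than the errors. The log2 ratio was 0.0013 and 0.99, a mean of 0.49 ± 0.70, so the arrays differed by as much as the larger ratio. The software's ratio was 0.97 ± 0.29 on the swapped array. Probes printed 10 times at a like signal, 20 in number, had a median spot SD of 0.24 and 0.23. Normexp with loess gave 0.04 and 0.43. Of probes detected in all 4 channels, 2.32% had as high a mean or higher.

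SORT1, the sorting receptor that takes part in the uptake and release of BDNF, had both probes detected throughout. The probe A_24_P325520, at chr1:109653956-109654015, read 875 ± 87.7 in control RNA and 793 ± 79.4 in miR-204 RNA on the forward array, and 678 ± 67.8 and 525 ± 52.9 on the swapped array. Signal was lower in miR-204 RNA on both arrays, with log2 ratios of -0.12 and -0.38 and a mean of -0.25 ± 0.19. Probes printed 10 times at a like signal had a median spot SD of 0.05 on each array. The probe A_23_P201587 bridges a junction, with ends at 109658884 and 109661014. It read 280 ± 28.3 and 222 ± 22.5 on the forward array and 200.2 ± 20.2 and 212 ± 21.9 on the swapped array. Its log2 ratios were -0.33 and 0.08, a mean of -0.13 ± 0.29. Both SORT1 probes had a mean below 0, and on the swapped array they had opposite signs. Means as low or lower were held by 13.1% and 26.3% of the probes detected in all 4 channels.

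**Figure D3:**
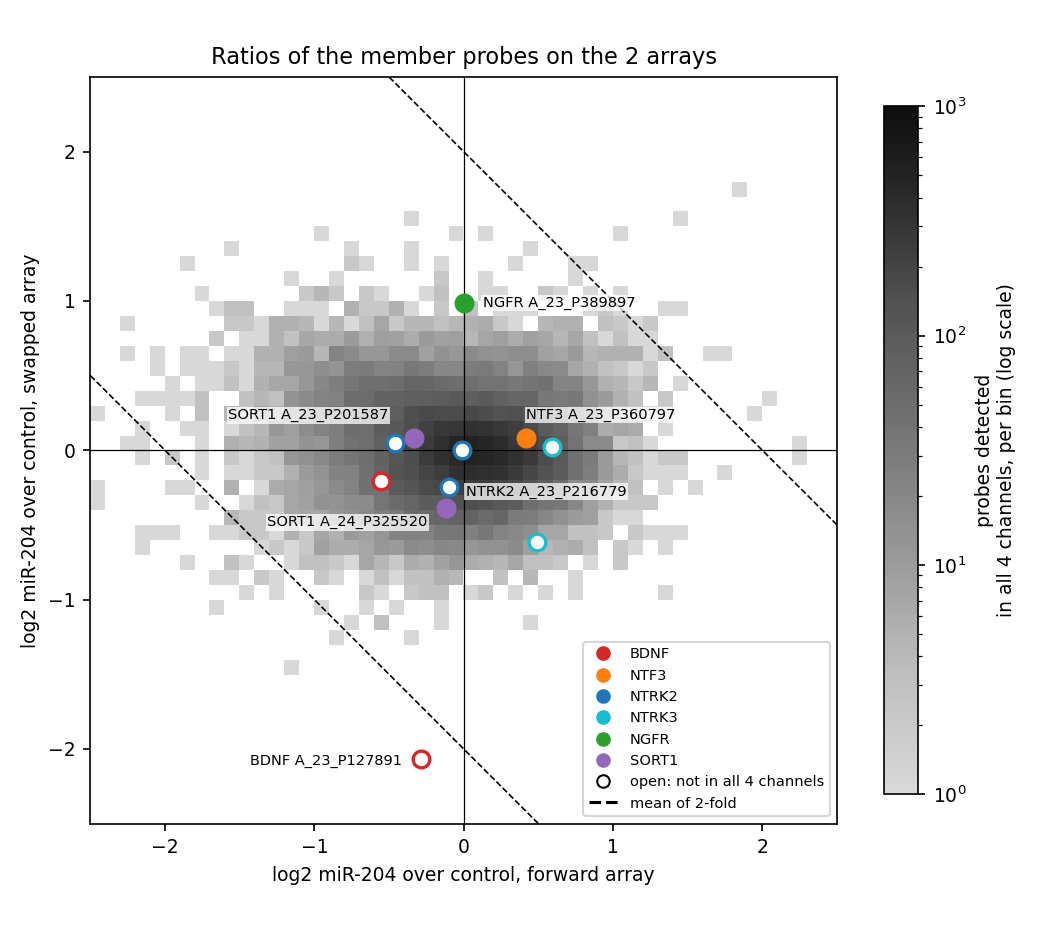
Log2 ratio of miR-204 over control on the forward array (horizontal) and the swapped array (vertical) for the 11 member probes, over a binned count of the 23159 probes detected in all 4 channels (grey, log scale). The filled NTF3, NGFR and SORT1 points lie between the dashed lines that mark a mean of 2-fold, and the BDNF probe at -0.29 and -2.07 lies outside them as an open point.

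None of the 5 counted member probes was lower by 2-fold in the mean with the same sign on both arrays, against 0.518% of the 25270 counted probes, and none was higher by 2-fold, against 0.123%. The means of the 4 detected in all 4 channels ran from -0.25 to 0.49, with a median of 0.06 beside 0.0099 over all probes so detected. Both arrays were below 0 for 1 of the 4, the SORT1 probe A_24_P325520, against 21.9% of those probes, and above 0 for 2, NTF3 and NGFR, against 25.2%. For the probes detected in all 4 channels the log2 ratio had an SD of 0.43 on the forward array and 0.28 on the swapped array, and the mean of the arrays an SD of 0.25.

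The BDNF probe A_23_P127891 moved across 2-fold with the processing. Its mean was -1.18 by quantile normalization of the processed signals and between -2.07 and -0.02 over 10 alternatives, of which 7 were at -1 or lower. Normexp with loess gave -0.02, and raw mean signals with loess gave -0.12. Raw signals still hold the background, which was 58 to 64 around this probe beside spot readings of 64.0 to 95.6. That draws the ratio toward 0, so the -0.12 says little about BDNF. Settings that use the processed signals of the swapped array reuse its surrogate of 6.77, so the 7 are not independent of each other. Where the filter on signal was left out, or where the weaker flag for a positive and significant signal replaced it, this probe passed the 2-fold rule as the only member. The ratios of NTF3 and NGFR stayed above 0 and that of SORT1 A_24_P325520 below 0 under all 10 alternatives. SORT1 A_23_P201587 was below 0 under 9 of them. For NGFR the lowest value was 0.0013, on the forward array alone. The alternatives rework the same spots and include each array alone, so a sign shared by both arrays gains no support from them.

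**Figure D4:**
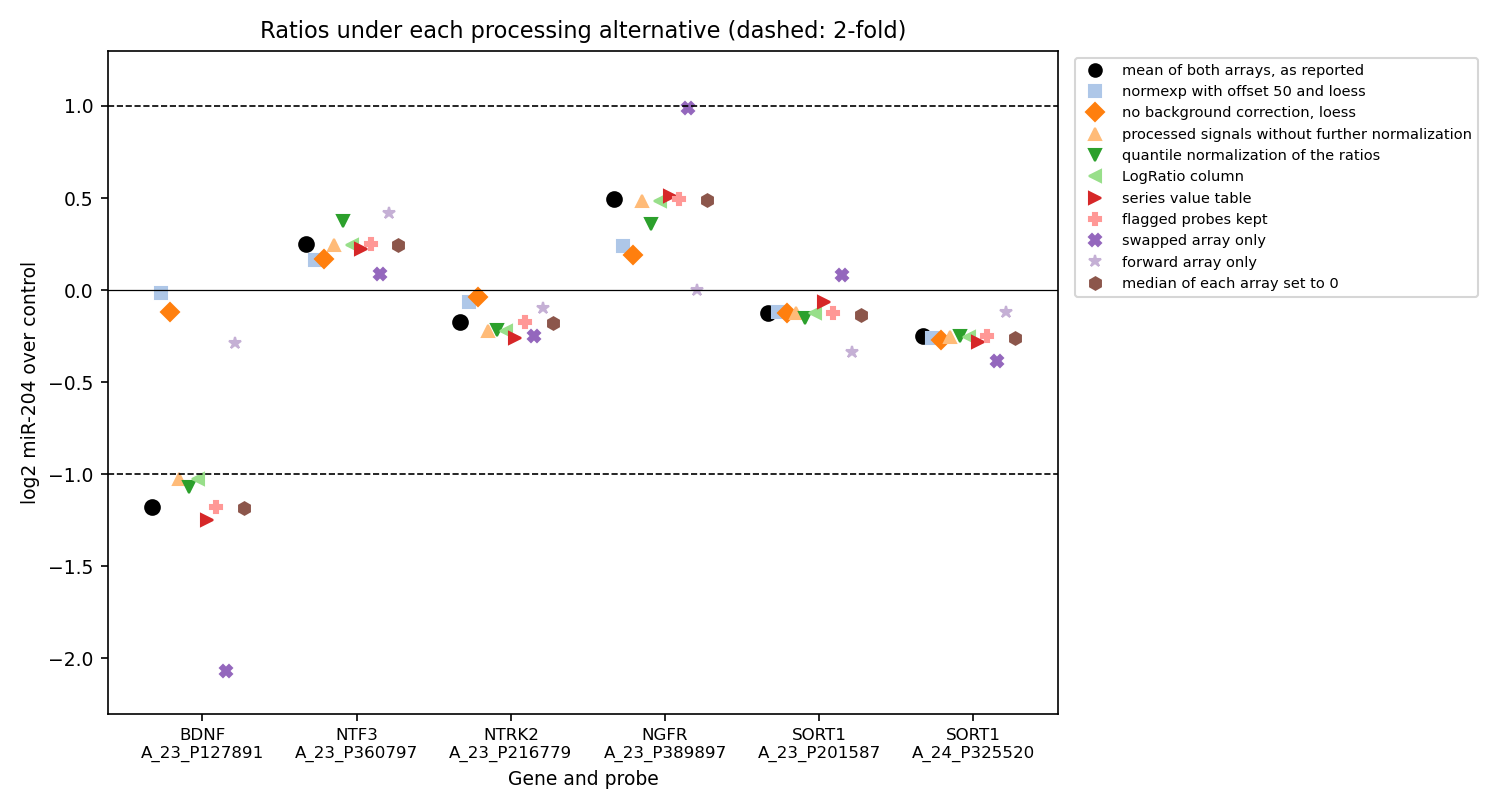
Log2 ratio of miR-204 over control for the 5 counted probes and the BDNF probe A_23_P127891 under each processing alternative (symbols), with dashed lines at 2-fold. The BDNF values spread from -2.07 to -0.02, and every value of the counted probes lies between the dashed lines.

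The genes whose pair of ratios lay nearest to each member were looked up among 17229 gene names with a probe detected in all 4 channels. For NTF3 these were MORC3 and 2 unnamed transcripts, and 667 names lay within 0.1 log2 units. For NGFR they were FLJ31813, HSD17B14 and AK027091, at distances of 0.05 to 0.10, and only 4 names lay within 0.1. For SORT1 they were MAP3K3, SOX11 and ZNF138 by the probe A_24_P325520 and C6orf136, MTCH1 and GPSN2 by A_23_P201587, with 301 and 566 names within 0.1. Few probes thus had the ratios of NGFR, level on the forward array and near 2-fold on the swapped array.

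The rest of the pathway was taken from a list of 87 genes, of which 86 had a probe and 72 were counted. Of the other 14, 12 were not detected and 2, PLCG1 and MAPK3, were left out since 1 of the 10 spots of their only probe carried an outlier flag. None was lower by 2-fold and 1 was higher, EGR1. Over the 18585 gene names counted, 0.452% were lower by 2-fold and 0.151% higher. Below 0 on both arrays were 10 of the 72, against 22.8% of all names, and above 0 on both were 13, against 24.5%. The other 49 did not move the same way on both arrays. The median of the list was -0.05, beside 0.0022 over all names.

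Among the other ligands, NTF4, which also binds TrkB, had a log2 ratio of -0.31 on the forward array and 0.03 on the swapped array. Among the other receptors and co-receptors 5 of 7 genes were counted. They ran from -0.16 for SORCS1, a relative of sortilin, to 0.08 for LINGO1, a partner of p75. Of the enzymes and carriers that process the precursors, 6 of 9 were counted, from -0.19 for PLAT, the tissue plasminogen activator, to 0.11 for PCSK6, a proprotein convertase. FURIN, which cuts the precursors in the secretory pathway, had -0.52 on the forward array and 0.51 on the swapped array, and was named after its values were seen.

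All 9 genes listed as effectors of p75 were counted. BEX1, which binds the tail of p75, was the highest, with 152 and 192 in control and miR-204 RNA on the forward array and 111 and 173 on the swapped array, a log2 ratio of 0.34 and 0.64. It was brighter in miR-204 RNA on both arrays. IRAK1, a kinase, was the lowest at -0.30, with -0.86 on the forward array and 0.26 on the swapped array. Of the Trk adaptors 20 of 25 with a probe were counted, from -0.41 for NCK2, which was lower on both arrays with -0.42 and -0.40, to 0.23 for CRK. PLCG1, the phospholipase that Trk receptors activate, was left out for its outlier flag, and with flagged probes kept it had -0.92 on the forward array and 0.05 on the swapped array.

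Of downstream kinases and GTPases 18 of 19 were counted, and MAPK3, the kinase ERK1, was left out for its flag. RPS6KA5, a nuclear kinase that phosphorylates CREB and histone H3, was the lowest, with -0.46 and -0.57 over 3 probes whose own means ran from -0.98 to -0.24. The lowest of these 3 was detected in 2 of 4 channels. Without it RPS6KA5 had a mean of -0.29, and HRAS was then the lowest at -0.42, with -1.11 on the forward array and 0.27 on the swapped array. MAPK7, the kinase ERK5 that TrkB signals through, was the highest at 0.20. Of the transcription factors known to act on the BDNF gene 5 of 6 were counted. CARF, listed in the files as ALS2CR8, was the lowest at -0.55, and its arrays lay far apart with 0.81 and -1.91. Its miR-204 signal on the swapped array, 6.85, was not detected, as for BDNF. Among genes with a probe detected in all 4 channels REST, a repressor of neuronal genes, was the lowest at -0.29. Its 2 such probes had means of -0.75 and 0.16. The first was lower on both arrays, with -0.89 and -0.61, and read 1039 and 898 in control RNA. The second had 0.69 on the forward array and -0.37 on the swapped array, and read 50.6 and 55.5 in control RNA.

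Genes that neurotrophins switch on through MAP kinases and CREB were counted for 8 of 9, and 5 of these were above 0 on both arrays, against 24.5% of all names, with a median of 0.37 for the group. EGR1, an immediate early transcription factor, read 189 and 487 in control and miR-204 RNA on the forward array and 166 and 272 on the swapped array. It was brighter in miR-204 RNA on both arrays without overlap, with log2 ratios of 1.36 and 0.70 and a mean of 1.03 ± 0.47. FOS, ARC, DUSP6 and EGR2 were named after their values were seen. FOS read 89.3 and 184 on the forward array and 67.1 and 86.4 on the swapped array, with ratios of 1.05 and 0.36. ARC, a synaptic gene, had 0.42 and 0.68. DUSP6, a phosphatase of ERK, had 0.40 and 0.37, and EGR2 had 0.63 and 0.07. JUNB was the lowest of the group at -0.21, with -0.46 on the forward array and 0.04 on the swapped array. The means of the 5 genes stayed above 0 under all 10 alternatives, and EGR1 fell to 0.68 by normexp with loess. These alternatives reuse the same spots and include each array alone. As the 5 genes were those above 0 on both arrays, their sign there adds no support.

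**Figure D5:**
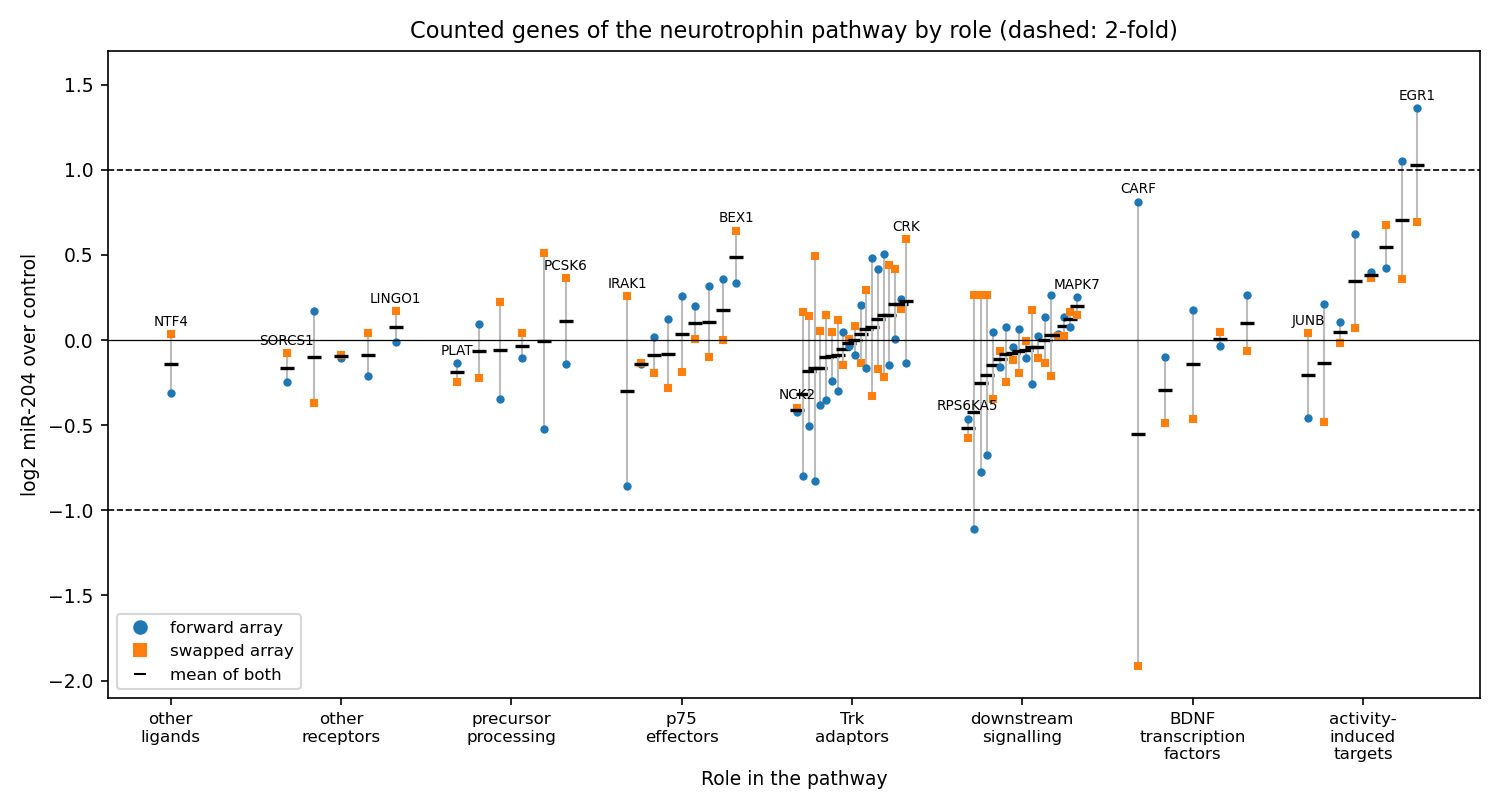
Log2 ratio of miR-204 over control of the 72 counted pathway genes by role, on the forward array (circles), on the swapped array (squares) and as the mean of both (bars), with dashed lines at 2-fold. Of the 72 genes, EGR1 alone has a mean above the upper line, at 1.03, and for 49 of the 72 genes the arrays do not lie on the same side of 0.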

How the data were processed

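Total RNA of HEK-293 cells was hybridised on the Agilent Human Whole Genome array. Per the file headers, the scans were read with Feature Extraction 9.5.3.1, with probe positions on hg18. The deposited intensity columns hold raw mean signals and processed signals that the software had background-subtracted and dye-normalized. The deposited log10 ratio column holds red over green, and the authors' series table holds quantile-normalized log2 ratios, which tracked the scanner ratios with r of 0.993 and 0.994 across probes. Its centring is not stated, and its medians were 0.0065 and -0.018. Both were used as alternatives, as were the methods' tests.

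Control spots and 128 probes with outlier flags were left out. Log2 processed signals were averaged over spots of a probe and quantile-normalized over the 4 channels (limma 3.58.1, R 4.3.3), and ratios were turned to miR-204 over control. A probe was called when the mean reached 2-fold with the same sign on both arrays. Values for a gene of the pathway list are means over its counted probes. Precision is limited by the number of arrays. The calls were tested on artificial arrays with known changes larger than 2-fold, made only in probes detected in all 4 channels. That test does not cover weak signals such as those of BDNF, NTRK2 and NTRK3.

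All member probes are named. Pathway genes are named when past 2-fold and when lowest or highest in their role, and neighbours of a member are the 3 gene names nearest in both ratios. The members and lists were chosen with earlier results of these data known. A few genes of the lists are not reported here.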

Additional observations from a re-analysis of the deposited data

How the results depend on the processing

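Low signal limits BDNF, NTRK3 and the full-length NTRK2 probe, and 1 dye swap gives no spread between cultures. No paired analysis was possible because both arrays were taken as 1 pair of RNAs. The counts of member probes higher by 2-fold stayed at 0 in all 17 alternatives, and those lower by 2-fold at 0 in 15, with 1, BDNF, without a filter on signal and with the positive and significant flag. With that flag, 5 probes were positive and significant in all 4 channels, against 4 detected.

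Of the pathway genes, the forward array or the swapped array alone gave 1 lower each, HRAS and CARF, and 0 to 2 higher. The count higher was 0 with normexp and loess, without background correction, with quantile-normalized ratios, with 2-fold on each array and with the methods' t-test after Benjamini-Hochberg adjustment. It was 2 at 1.5-fold (EGR1 and FOS) and 2 with the positive and significant flag (EGR1 and GAB1).

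Of all counted probes, 131 passed 2-fold downward and 31 upward. These became 7 and 2 with normexp and loess and likewise without background correction. Quantile-normalized ratios gave 18 higher. No filter gave 400 and 252, all 4 channels 29 and 18, the positive and significant flag 398 and 232, 1.5-fold 662 and 322, and 2-fold on each array 22 and 13. A single array gave 208 to 724 lower and 77 to 194 higher. The methods' t-test with 2-fold gave 18 and 15 unadjusted and 0 and 0 adjusted. Of the 25270 counted probes, 1604 were under the unadjusted threshold, and of the 5 counted member probes 0 were. This test takes the 2 arrays as replicates, while they were counted here as 1, so no conclusion is drawn from it. Setting each array's median to 0 was chosen after seeing the data and changed no count by over 1.5 times.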
